A study of Mus musculus with 20 samples.

Results

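Gzma, Gzmb, Gzmk, Prf1, Nkg7, Klrk1, Klrd1, Ncr1, Eomes and Tbx21 are genes of the cytotoxic program of T cells and natural killer (NK) cells. They were chosen by function, with earlier results of these data known, and make up 10 of the 49315 gene identifiers in the deposited count tables. The tables come from RNA sequencing of eosinophils sorted by flow cytometry from mouse lung, in a series of 20 samples in 4 groups of 5. Each library was made from a pool of lungs of 3 to 5 mice. The resting group (n = 5) came from untreated C57BL/6 mice. The other group used here (n = 5) came from Balb/c lungs transplanted into C57BL/6 mice and taken at day 7, and its titles read "no CSB", where CSB stands for costimulatory blockade, a treatment that withholds accessory activation signals from T cells. The protocol text common to every sample speaks of transplantation under blockade, so the absence of blockade rests on the sample titles. Eosinophils in these grafts derive from the recipient, per the labels. No source used here gives age, sex or any genotype beyond the strain. The groups with blockade at day 7 and day 30 were not analysed here.

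Cytotoxic lymphocytes kill by releasing granules that hold perforin, which opens the target cell membrane, and granzymes, the serine proteases that enter through it. Release is steered by activating receptors such as NKG2D and NKp46 and by inhibitory receptors such as the pair of CD94 and NKG2A. The T-box factors T-bet and Eomes switch on this program in CD8 T cells, NK cells and type 1 innate lymphoid cells, whereas eosinophils are known for a different granule content of cationic proteins.

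The libraries held other cells' transcripts beside those of eosinophils. Total counts were 6666577 to 12883144 in the resting libraries and 15695074 to 26683784 at day 7. On these raw totals a count of 3 equals 0.233 to 0.450 CPM (counts scaled to a library of 1000000) at rest and 0.112 to 0.191 CPM at day 7. All other CPM values use totals corrected for library composition, on which 3 counts were 0.316 CPM in resting library 1, against 0.350 on its raw total. Siglecf and Ccr3, markers of eosinophils, were present in both groups, at 147 ± 34.4 and 354 ± 141 CPM at rest and 221 ± 70.0 and 442 ± 253 CPM at day 7 (mean ± SD, n = 5). Of 10 eosinophil markers 2 rose (1 with library totals alone), 5 fell and 3 were not called. The call of Siglecf as higher was lost without any 1 of 7 libraries. The 5 that fell were Epx (92.6 to 6.87 CPM), Prg2 (461 to 81.3), Prg3 (29.1 to 4.17), Ear1 (189 to 46.2) and Ear2 (260 to 66.8). All 7 genes of the T cell receptor complex rose, from a summed 69.2 to 94.5 CPM at rest to 243 to 602 CPM at day 7. The CD8 chains Cd8a and Cd8b1 rose from a summed 8.31 to 16.4 CPM to 75.4 to 248 CPM. Among 10 markers of NK cells and type 1 innate lymphoid cells 3 rose (1 with library totals alone), 3 fell and 4 were not called, shares near those of all genes tested, 23.3% higher and 23.4% lower. The 3 that fell, Itga1, Itga2 and Tnfsf10, went from a summed 202 to 237 CPM to 34.2 to 60.7 CPM, and the other 7 from 28.5 to 40.6 CPM to 33.6 to 120.02 CPM. Monocyte and macrophage markers rose in 9 of 10 cases, all 5 proliferation genes rose, and all 5 markers each of endothelium, epithelium, red cells and B cells fell. None of 7 neutrophil markers was called, and their sum was 8099 to 11646 CPM at rest and 5236 to 10602 CPM at day 7, beside 1586 to 2988 and 909 to 3112 CPM for the eosinophil markers (sums over genes of different length). Without day 7 library 1, S100a8 (-1.20), S100a9 (-1.16) and Mmp9 (-0.40 on the log2 scale) were called lower (edgeR adjusted p = 0.00725, 0.00684 and 0.0168). The other neutrophil markers stayed uncalled. The part of these other cells in the results was not tested. The groups come from separate deposited tables, so a difference between the tables and a difference between the conditions cannot be told apart.

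Of the 10 genes 9 were higher at day 7 without blockade than in resting lung, none was lower and 1, Ncr1, was not called (edgeR quasi-likelihood test, Benjamini-Hochberg adjusted p below 0.05). Over all 16500 genes tested the same test called 23.3% higher and 23.4% lower, or 46.7% in either direction. The day 7 libraries lay wholly above the resting libraries for the same 9 genes, against 16.6% of all genes tested, and wholly below for 18.6% of all genes and none of the 10. Gzmk reached the filter on low counts through its day 7 libraries, so its call was in part set by that filter. Of the 9 genes that reached it in every resting library 8 were called higher. The 10 genes had a median log2 fold change of 2.06, against 0.05 for all genes tested. They were chosen with earlier results of these data known, so the excess over all genes is a description and not a test. Without the TMM correction for library composition (a scaling by the trimmed mean of the genes' ratios), the median of all genes moved to -0.14 and the calls over all genes from 3843 higher and 3859 lower to 2495 higher and 4883 lower. Under that scaling 8 of the 10 genes remained called higher. In sorted pools, more cells that carry a transcript and more transcript per cell cannot be told apart.

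**Figure D1:**
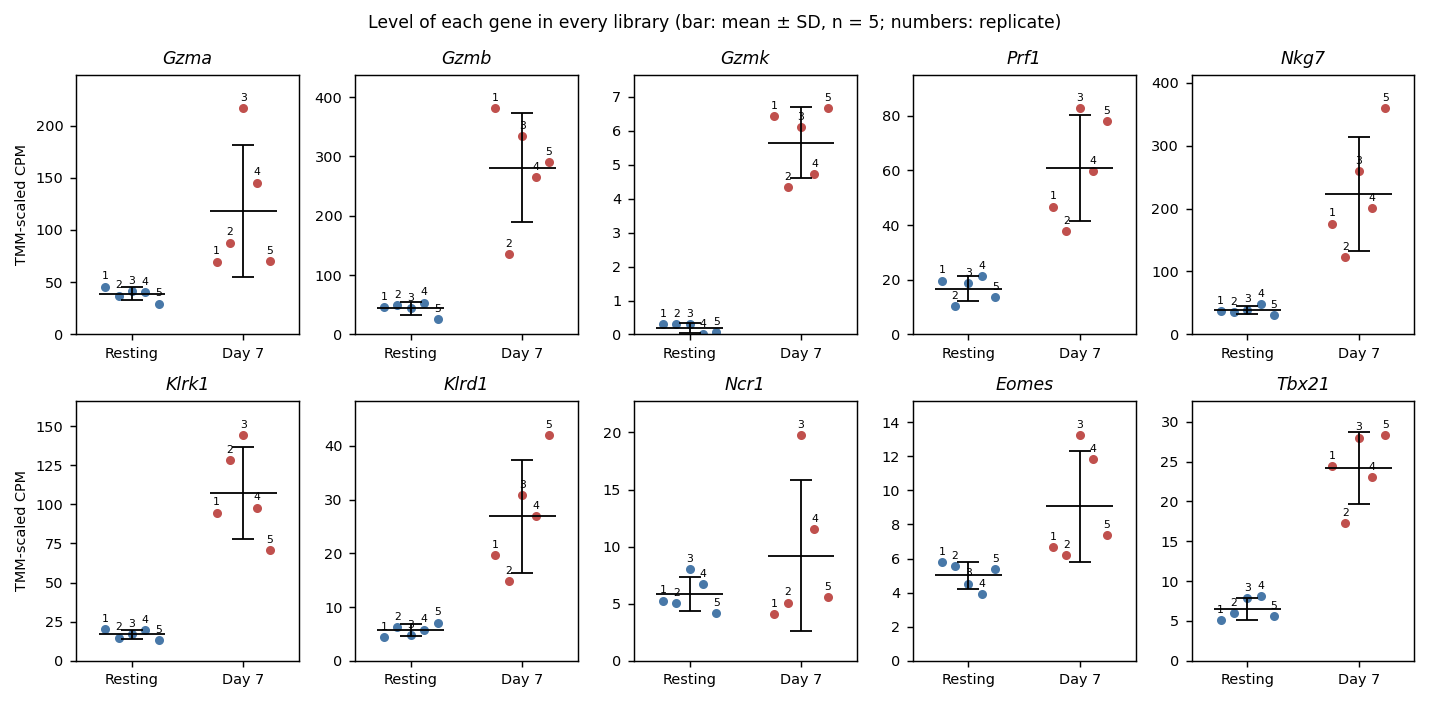
Level of each of the 10 genes in every library, in CPM on TMM-scaled totals (y axis, linear and starting at 0, with its own range in each panel). Points are libraries with their replicate number, and bars give the mean ± SD of 5 libraries. The groups are separate in every panel except that of Ncr1, where day 7 libraries 2 and 5 lie among the resting ones and library 1 just below them.

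Promoter sequences were available for 9 of the 10 genes from RefSeq (build GRCm38.p6), with no entry for Klrd1. In the 250 bases before each start, the RUNX motif TGTGGTT, sought on both strands (as AACCACA on the opposite one), stood in 4 of the 9 genes and in 4.4% of 32851 windows of the same length. RUNX factors are known regulators of cytotoxic T cells and NK cells. The 4 genes with the motif are shown because their levels went different ways: Gzmb and Klrk1 rose by similar amounts, Gzma rose less and Ncr1 was not called. Capitals mark the RUNX motif and, in Gzmb, the AP-1 motif TGANTCA further from the start. The windows lie at chr13:113100982-113101231 (minus strand), chr14:56262335-56262584 (minus), chr6:129623865-129624114 (minus) and chr7:4337465-4337714 (plus).
Gzma: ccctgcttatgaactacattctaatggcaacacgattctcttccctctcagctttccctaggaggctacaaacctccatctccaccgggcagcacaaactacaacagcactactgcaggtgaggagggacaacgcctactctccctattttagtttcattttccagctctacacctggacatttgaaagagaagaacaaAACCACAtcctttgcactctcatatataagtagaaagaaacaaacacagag
Gzmb: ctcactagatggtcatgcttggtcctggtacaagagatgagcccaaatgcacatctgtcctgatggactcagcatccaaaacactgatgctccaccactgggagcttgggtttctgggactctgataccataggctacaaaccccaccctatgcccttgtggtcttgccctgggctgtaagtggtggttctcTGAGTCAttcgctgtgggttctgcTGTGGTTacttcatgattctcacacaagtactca
Klrk1: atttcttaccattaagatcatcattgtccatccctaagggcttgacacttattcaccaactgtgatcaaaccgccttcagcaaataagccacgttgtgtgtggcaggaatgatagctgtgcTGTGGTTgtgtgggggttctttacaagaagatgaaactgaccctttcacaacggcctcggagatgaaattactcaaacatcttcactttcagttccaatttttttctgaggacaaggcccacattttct
Ncr1: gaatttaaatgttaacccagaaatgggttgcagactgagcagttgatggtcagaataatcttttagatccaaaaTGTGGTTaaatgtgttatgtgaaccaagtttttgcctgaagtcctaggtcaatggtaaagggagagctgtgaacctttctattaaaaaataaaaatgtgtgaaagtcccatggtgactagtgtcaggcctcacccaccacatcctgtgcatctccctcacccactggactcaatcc
The RUNX motif began 51 bases before the start in Gzma, 34 in Gzmb, 129 in Klrk1 and 176 in Ncr1. The AP-1 motif, held by 6.75% of all windows, was found in Gzmb and in none of the other 8 windows. The T-box motif GGTGTGA, held by 3.33% of windows, stood in Gzmk and Nkg7, and the GAS motif TTCNNNGAA of STAT factors, held by 7.02%, stood in Nkg7. None of these 4 motifs was found in the windows of Prf1, Eomes and Tbx21. A match is a description of the letters and not a measured binding site.

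All 5 genes of granule proteins rose. Gzmb (ENSMUSG00000015437, chromosome 14, 56258838 to 56262260 on mm10, minus strand) encodes granzyme B, which cleaves caspases and their substrates in the target cell. It stood at 46.6, 49.5, 43.8, 53.8 and 26.0 CPM in resting libraries 1 to 5 and at 381, 136, 334, 265 and 291 CPM in day 7 libraries 1 to 5. Every day 7 library was above every resting one, with library 2 the lowest of its group, and the means were 43.9 ± 10.7 and 281 ± 92.5 CPM. The log2 fold change was 2.68 ± 0.27 (SE), a 6.39-fold rise (edgeR, adjusted p = 3.54e-06).

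Gzma (ENSMUSG00000023132, chromosome 13, 113093825 to 113100981, minus strand) encodes granzyme A, a tryptase that is abundant in NK cells and also found in T cells. Its level was 45.7, 37.3, 41.6, 40.9 and 29.6 CPM at rest and 69.8, 87.9, 216, 145 and 70.0 CPM at day 7. Resting libraries differed little among themselves, while at day 7 library 3 held 3.10 times the level of library 1. The rise of 1.59 ± 0.30 on the log2 scale, or 3.02-fold, passed the test (edgeR, adjusted p = 0.000673), and the groups did not overlap.

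Gzmk (ENSMUSG00000042385, chromosome 13, 113171608 to 113225908, minus strand) encodes granzyme K, a tryptase associated with effector memory CD8 T cells. It was near the detection floor at rest, with 3, 3, 3, 0 and 1 counts, and had 106, 79, 156, 72 and 124 counts at day 7. That is 0.316, 0.297, 0.309, 0 and 0.0738 CPM against 6.45, 4.33, 6.10, 4.73 and 6.66 CPM. The pooled counts, 10 against 537, gave a 28.7-fold difference after scaling for depth, with an exact 95% interval of 15.5 to 60.2 that covers counting error only. The day 7 libraries were more alike for Gzmk than for Gzma, with a coefficient of variation (SD over mean) of 18.6% against 53.6%. The edgeR test gave an adjusted p of 5.63e-07. Its annotated span holds Esm1 on the opposite strand, with no exon bases in common.

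Prf1 (ENSMUSG00000037202, chromosome 10, 61297833 to 61304680, plus strand), the gene of perforin, had 19.7, 10.4, 18.8, 21.2 and 13.7 CPM at rest and 46.8, 37.8, 82.6, 59.6 and 78.1 CPM at day 7. All day 7 libraries exceeded all resting ones, with libraries 3 and 5 at the top. Its log2 fold change was 1.86 ± 0.25, or 3.64-fold (edgeR, adjusted p = 3.81e-05). Nkg7 (ENSMUSG00000004612, chromosome 7, 43437073 to 43438249, plus strand) encodes a membrane protein of cytotoxic granules that takes part in their release. Its level was 37.6, 36.0, 39.3, 48.1 and 30.4 CPM at rest and 176, 122, 259, 200.1 and 359 CPM at day 7, without overlap and with library 5 highest. The rise was 5.83-fold, 2.54 ± 0.25 on the log2 scale (edgeR, adjusted p = 3.17e-06).

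Of the receptors, the genes of NKG2D and CD94 rose and the gene of NKp46 did not pass the test. Klrk1 (ENSMUSG00000030149, chromosome 6, 129610323 to 129623864, minus strand) encodes NKG2D, an activating receptor of NK cells and activated CD8 T cells that binds stress-induced ligands. It measured 20.0, 14.7, 17.1, 19.4 and 13.4 CPM at rest and 94.8, 128, 145, 98.0 and 70.8 CPM at day 7. The groups were far apart, and day 7 library 5, the highest for Nkg7, was the lowest for Klrk1. The 6.34-fold rise, 2.67 ± 0.20 on the log2 scale, had an adjusted p of 1.44e-07 by edgeR.

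Klrd1 (ENSMUSG00000030165, chromosome 6, 129591782 to 129598775, plus strand) encodes CD94, the common partner of the NKG2 chains. Resting values were 4.42, 6.33, 4.84, 5.78 and 7.09 CPM, and day 7 values were 19.6, 14.9, 30.8, 27.0 and 42.1 CPM. No library crossed between the groups, and day 7 library 5 was again the highest and library 2 the lowest. The log2 fold change was 2.23 ± 0.26, or 4.69-fold (edgeR, adjusted p = 1.28e-05).

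Ncr1 (ENSMUSG00000062524, chromosome 7, 4337724 to 4345164, plus strand) encodes NKp46, an activating receptor that marks NK cells and type 1 innate lymphoid cells. It was measured at 5.27, 5.04, 8.03, 6.72 and 4.21 CPM at rest and at 4.07, 5.10, 19.8, 11.5 and 5.59 CPM at day 7. Day 7 libraries 3 and 4 were above every resting library, library 1 was below every one, and libraries 2 and 5 were within their range. The log2 fold change of 0.67 ± 0.41 was not called (edgeR, adjusted p = 0.202). With genes of low counts kept in the fit, the value was 0.79 and passed (adjusted p = 0.00653), and over all settings tried it ranged from 0.18 to 0.86.

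The T-box factors both rose, Tbx21 more than Eomes. Tbx21 (ENSMUSG00000001444, chromosome 11, 97098071 to 97115331, minus strand), the gene of T-bet, had 5.05, 5.93, 7.82, 8.07 and 5.61 CPM at rest and 24.4, 17.3, 28.02, 23.01 and 28.4 CPM at day 7. Each group was compact, with a coefficient of variation of 20.9% at rest and 18.6% at day 7, and they lay far apart. The rise was 1.90 ± 0.18 on the log2 scale, or 3.73-fold (edgeR, adjusted p = 1.85e-06).

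Eomes (ENSMUSG00000032446, chromosome 9, 118478212 to 118486132, plus strand) encodes eomesodermin, the T-box factor required by mature NK cells and memory CD8 T cells. Its levels were 5.79, 5.54, 4.53, 3.90 and 5.39 CPM at rest and 6.69, 6.20, 13.3, 11.8 and 7.36 CPM at day 7. The groups did not overlap, but day 7 libraries 1 and 2 stood just above the resting range and libraries 3 and 4 well above it. The 1.79-fold rise, 0.84 ± 0.24 on the log2 scale, passed the edgeR test (adjusted p = 0.0119). With library totals alone it was 0.66 and no longer passed (adjusted p = 0.0510). The antisense gene Gm33460 shares 118 exon bases with Eomes and had 27 counts in the 10 libraries, and no source used here gives the strand setting of the counting.

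**Figure D2:**
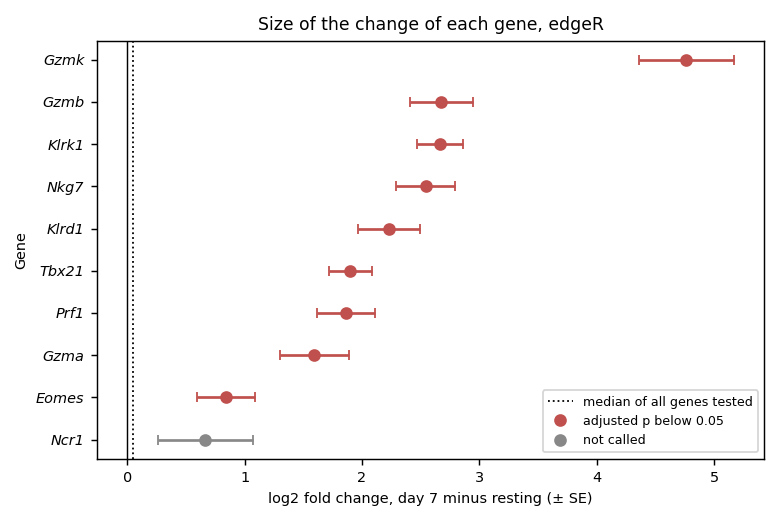
Log2 fold change of each gene, day 7 minus resting (x axis), with its standard error from edgeR, ordered by size. The dotted line is the median of all genes tested, 0.05. The estimates run from 0.67 for Ncr1, the gene drawn in grey as not called, to 4.76 for Gzmk.

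The changes of the genes were then compared with each other within libraries, as the difference of log2 (CPM + 0.5) between members, by exact two-sided permutation tests over 5 against 5 libraries with adjustment over the 45 pairs. Of the 45 pairs 26 differed. Gzmb rose more than Gzma by 1.18 on the log2 scale (exact test, adjusted p = 0.0179), and Tbx21 more than Eomes by 1.08 (adjusted p = 0.0286, exact). The change of Ncr1, itself not called, was smaller than that of each of 8 other genes, and its difference from Eomes was -0.33 (exact test, adjusted p = 0.309). Gzmb and Klrk1, whose rises were of like size, differed by 0.02 (adjusted p = 0.982, exact test), and Gzmb and Nkg7 by 0.17 (adjusted p = 0.570, exact test).

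Levels of different genes were compared as CPM per kilobase of annotated exon. At day 7 the order of mean levels was Nkg7 at 244, Gzmb at 196, Gzma at 117, Prf1 at 23.6, Klrd1 at 21.0, Klrk1 at 14.9, Tbx21 at 9.73, Ncr1 at 5.98, Gzmk at 4.07 and Eomes at 2.18 CPM per kilobase. Neighbours in that order overlapped in their library ranges, except Gzma and Prf1, between which Siglecf stood at 79.3. Per length, the day 7 libraries thus held Nkg7 and Gzmb at ranges that overlapped that of the eosinophil receptor gene Ccr3, at 135 CPM per kilobase. At rest the order was Nkg7 at 41.9, Gzma at 38.8, Gzmb at 30.6, Prf1 at 6.49, Klrd1 at 4.44, Ncr1 at 3.80, Tbx21 at 2.61, Klrk1 at 2.35, Eomes at 1.21 and Gzmk at 0.143. Ranges of neighbours were apart there between Gzmb and Prf1, between Klrk1 and Eomes and between Eomes and Gzmk. The resting range of Nkg7, 33.3 to 52.7, also overlapped that of Ccr3, 48.4 to 144, while that of Gzmb, 18.1 to 37.4, lay below it. Nkg7 and Gzma (29.4 to 45.4) overlapped the resting range of Siglecf, 37.5 to 70.9. The annotated exons of Klrk1 span 7183 bases over all isoforms, the longest of the 10 genes, which lowers its value per kilobase.

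T cell transcripts rose in the same libraries, and each gene was therefore also set against the summed CPM of Cd3d, Cd3e and Cd3g, the CD3 chains of the T cell receptor. That sum was 25.6 to 37.0 CPM at rest and 109.8 to 291 CPM at day 7. The log2 ratio of Nkg7 to CD3 was 0.02, 0.48, 0.27, 0.38 and 0.08 at rest and 0.03, 0.16, 0.55, 0.41 and 0.30 at day 7. The groups overlapped almost fully, and the means differed by 0.04, less than the SD of 0.20 in each group (exact permutation p = 0.738). The ratios of Gzmb, Klrk1 and Klrd1 differed by 0.21, 0.19 and -0.34, with exact p of 0.452, 0.635 and 0.190.

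Eomes and Ncr1 fell behind CD3. The log2 ratio of Eomes to CD3 was -2.57, -2.11, -2.71, -3.09 and -2.31 at rest and -4.59, -4.04, -3.69, -3.62 and -5.21 at day 7. All day 7 libraries were below all resting ones, by 1.67 on average (exact p = 0.00794, the smallest that 5 against 5 can give, and 0.0397 adjusted over the 10 ratios). For Ncr1 the difference was -2.004, with the same exact p and adjusted p and no overlap. Prf1 differed by -0.60 (exact adjusted p = 0.0397, but 0.0529 with Cd3e alone as the reference), and Gzma by -0.96 and Tbx21 by -0.59 (exact adjusted p = 0.0529 for both). The Gzmk ratio was 0.74 higher (exact adjusted p = 0.0397), but 0.07 higher with a pseudocount of 1 CPM in place of 0.5, so its size depended on the pseudocount. With 4 libraries against 5 the smallest exact p is 0.0159, and leaving out any library other than resting library 2 or day 7 library 3 left no ratio past the adjusted threshold. The sizes stayed at -1.43 to -1.82 for Eomes and -1.70 to -2.32 for Ncr1. Without day 7 library 3 the Gzma ratio was -1.21 and passed (exact adjusted p = 0.0397).

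**Figure D3:**
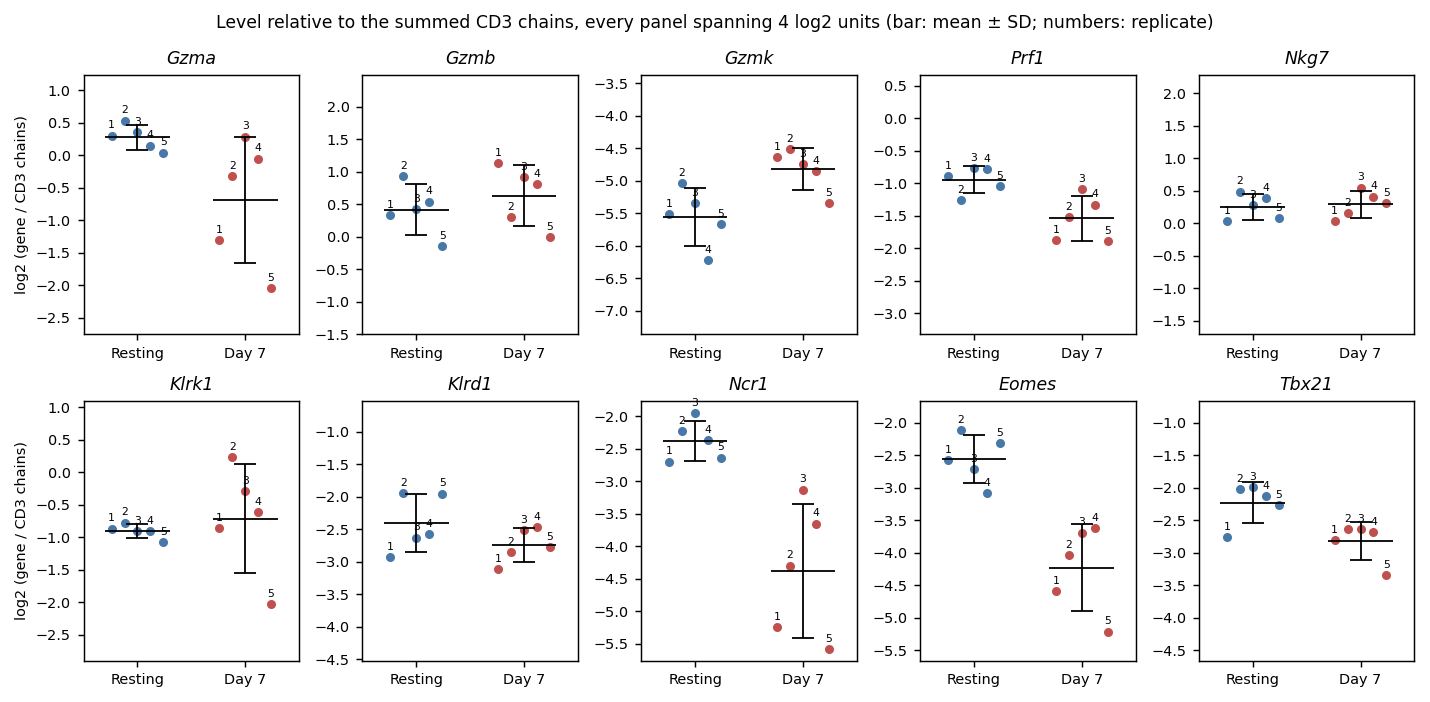
Log2 ratio of each gene to the summed CD3 chains in every library (y axis, each panel spanning 4 log2 units at its own height), with replicate numbers, mean and SD. Nkg7 lies at the same height in both groups, and the day 7 libraries of Ncr1 and Eomes lie below all resting ones.

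The reference decided the direction for several genes. These references were added after seeing the data. Against the summed CD8 chains all 10 ratios were lower at day 7, and 8 passed the exact test, with Nkg7 at -0.89 and Gzmb at -0.72. Against Klrb1c, Klre1 and Klra8, NK receptor genes whose sum was 11.1 to 20.8 CPM at rest and 13.6 to 57.4 CPM at day 7, 8 ratios were higher and passed, among them Gzmb by 1.88 and Klrk1 by 1.86. Relative to these NK genes Eomes differed by -0.00 (exact adjusted p = 0.984) and Ncr1 by -0.34 (exact adjusted p = 0.282). These 3 genes were picked from the NK list, whose Itga1, Itga2 and Tnfsf10 fell. Against all 8 genes of that list other than Ncr1 and Eomes, all 10 ratios were higher and passed, Eomes by 2.174 and Ncr1 by 1.84 (exact adjusted p = 0.00794). The sum of these 8 genes was 221 to 266 CPM at rest and 68.2 to 130 CPM at day 7. Itga1, Itga2 and Tnfsf10 made up 202 to 237 CPM of it at rest. As none of the 10 genes was called lower, this falling reference set the direction of the ratios, and no conclusion is drawn from them. The part of T cells or NK cells among the sorted cells in these changes was not tested.

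The 5 day 7 libraries fell into different orders for different genes. Library 3 and then library 4 were highest for Gzma, Ncr1 and Eomes, as they were for the NK receptor genes Klrb1c and Klre1. Klrb1c (NK1.1), for example, had 6.14, 10.3, 27.7, 18.1 and 9.30 CPM in day 7 libraries 1 to 5. Library 5 was highest for Nkg7 and Klrd1, as it was for Cd3e (68.4, 45.5, 68.4, 60.9 and 119 CPM) and for Cd8a. Library 2 was lowest for Gzmb, Prf1, Nkg7, Klrd1, Gzmk, Eomes and Tbx21. These orders are descriptions over 5 libraries each.

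**Figure D4:**
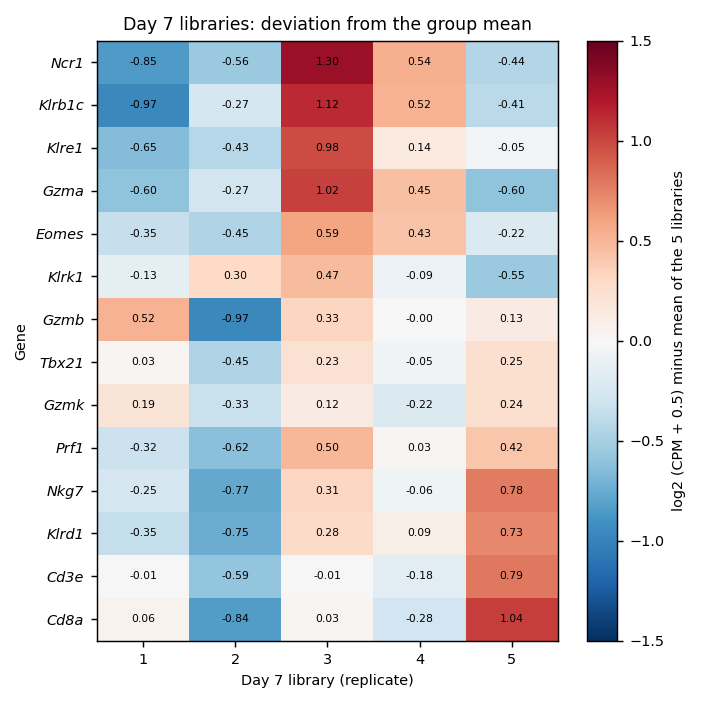
Deviation of each day 7 library (columns) from the mean of the 5 day 7 libraries, in log2 (CPM + 0.5), for the 10 genes and for Klrb1c, Klre1, Cd3e and Cd8a (rows). Red is above and blue below the mean. Ncr1, Klrb1c, Klre1, Gzma and Eomes share red cells in libraries 3 and 4, and Nkg7, Klrd1, Cd3e and Cd8a share the deepest red in library 5.

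Over all 10 libraries, the genes most like each member were sought among 9660 genes of at least 10 CPM in 1 group, by the mean absolute difference of log2 levels after each group was centred on its mean. Ncr1 was nearest to Gzma, at 0.204 log2 units, and to Klrb1c, at 0.207, against a deviation of its own of 0.503. Gzma was nearest to Chst1, at 0.157, and next to Klrb1c, at 0.167. Nkg7 was nearest to Ttll7, at 0.0836, and next to Cd3d, a CD3 chain, at 0.107. For Gzmb, Klrk1, Prf1, Klrd1, Eomes, Tbx21 and Gzmk the nearest genes were Arhgef15, Tcf4, Ephx1, Pam, Rnf125, Lrsam1 and Nt5dc1. The centring removes the change between groups, so a like gene can move the other way. Arhgef15 (log2 fold change -7.24), Ttll7 (-4.72), Chst1 (-2.84), Ephx1 (-2.55) and Pam (-1.77) were called lower at day 7. So were Tcf4 (-1.32) and Lrsam1 (-0.52), while Rnf125 and Nt5dc1 were not called. Arhgef15 and Ttll7 stood at 0.542 and 0.690 CPM at day 7. Likeness over so few libraries is a description and was not tested.

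The machinery around the granules rose in part. The counts of this list and of those that follow stand against 23.3% higher and 23.4% lower among all genes tested. Of the other granzymes 2 could be tested: Gzmc went from 2.30 to 5.45 CPM (log2 fold change 1.24, edgeR adjusted p = 0.0410), a call that was lost without any 1 of 7 libraries, with 0.91 and an adjusted p of 0.106 without day 7 library 1. Gzmm was not called, and Gzmd, Gzme, Gzmf, Gzmg and Gzmn had too few counts. Among 15 genes of granule storage, release and granzyme control 11 rose, none fell and 4 were not called, with a median log2 fold change of 1.03. Ctsc, whose product cathepsin C activates granzymes, rose from 310.3 to 2348 CPM (2.92 ± 0.24). It had 2486, 3275, 2988, 1661 and 1331 CPM in day 7 libraries 1 to 5. Its highest level was thus in library 2, the lowest for Gzmb, and its lowest in library 5, the highest for Nkg7. Monocyte and macrophage markers rose in 9 of 10 cases, and their part in the rise of Ctsc was not tested. Serpinb9, the intracellular inhibitor of granzyme B, rose from 65.7 to 214 CPM (1.70 ± 0.13), and Gnptab, an enzyme of lysosomal sorting, rose by 1.47. Srgn, the granule proteoglycan serglycin, was at 3505 and 3863 CPM (0.14, edgeR adjusted p = 0.623) and Lyst, a regulator of granule size, at 275 and 331 CPM (0.26, edgeR adjusted p = 0.413).

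Among 21 other NK receptor genes 14 rose, 1 fell and 6 were not called, with a median of 1.21, beside 23.3% higher and 23.4% lower among all genes. For 4 of the 21 the resting libraries did not all reach the filter, and of the remaining 17 genes 11 rose. Klrc1, the gene of the inhibitory chain NKG2A that pairs with CD94, had 7.48, 5.74, 7.41, 4.70 and 5.68 CPM at rest and 51.9, 25.0, 59.3, 49.3 and 77.0 CPM at day 7. The groups were far apart (log2 fold change 3.07 ± 0.27, edgeR adjusted p = 7.97e-07), and library 5 was the highest and library 2 the lowest, as for Klrd1. The ligand of this pair, Qa-1, is encoded by H2-T23, which rose from 394 ± 53.6 to 1207 ± 158 CPM (1.61, edgeR adjusted p = 6.23e-07). Klrb1b rose by 2.60 and the Fc receptor gene Fcgr3, also a gene of myeloid cells, by 2.00. Klrb1c gave 0.82 (edgeR adjusted p = 0.0786) and Cd244a, the receptor 2B4, gave -0.17 (edgeR adjusted p = 0.379). Reads of near-identical Klr and H2 genes may be divided between copies, and no source used here says how such reads were treated.

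Of 14 adaptors and signalling genes 9 rose, 1 fell and 4 were not called, with a median of 0.93. The kinases Zap70 and Lck of T cells and NK cells rose by 2.61 and 2.05 and the exchange factor Vav1 by 1.36. Tyrobp, the adaptor DAP12 of several NK receptors, stood at 1441 and 1647 CPM (0.19, edgeR adjusted p = 0.225), and the kinase Syk at 823 and 868 CPM (0.07, edgeR adjusted p = 0.724). Hcst, the adaptor DAP10 of NKG2D, was named after its values were seen: it was at 52.6 and 52.8 CPM, with a log2 fold change of -0.00 (edgeR adjusted p = 0.991). Klrk1 itself rose in the same libraries. Among 11 ligands of the receptors 6 rose, 2 fell and 3 were not called, with a median of 0.92, and of the 9 that reached the filter in every resting library 5 rose. Tnfrsf9, the costimulatory receptor 4-1BB, which stands in that list, rose from 8.07 to 98.6 CPM (3.61), and the NKG2D ligand gene Ulbp1 rose by 1.38.

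Ifng and Xcl1, secreted by cytotoxic cells, both rose at day 7, and library 5 held by far the most of each. Of 11 death ligands and secreted effectors 8 rose, 2 fell and 1 was not called, with a median of 1.90, and of the 9 that reached the filter in every resting library (not Ifng and Lta) 7 rose. Ifng, the gene of interferon gamma, had 1.47, 0.396, 0.617, 0 and 0.886 CPM at rest and 14.8, 5.98, 24.7, 17.0 and 74.6 CPM at day 7 (log2 fold change 5.26 ± 0.75, edgeR adjusted p = 8.45e-05). Xcl1, the gene of lymphotactin, had 1.37, 0.692, 0.823, 1.34 and 1.11 CPM and then 18.0, 9.87, 23.4, 25.6 and 121 CPM (5.22 ± 0.73). The day 7 libraries lay above the resting ones for both, with library 2 the lowest of its group. Without library 5 the log2 fold changes were 4.46 for Ifng and 4.18 for Xcl1. Ccl5, a chemokine of T cells and NK cells, rose from 32.9 to 184 CPM (2.48).

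Of 15 cytokines and cytokine receptors that act on cytotoxic cells 11 rose, none fell and 4 were not called, with a median of 2.19, and of the 12 that reached the filter in every resting library 8 rose. Il12rb1 rose by 4.02 and Il2ra by 3.67. Il10, which like Il12b and Il27 reached the filter through its day 7 libraries, gave 3.31, and its call was in part set by that filter. Il12rb2 gave -0.16 (edgeR adjusted p = 0.517) and Il18 gave 0.58 (edgeR adjusted p = 0.0579). Among 15 other transcription factors of cytotoxic cells 9 rose, 3 fell and 3 were not called, with a median of 0.64. Tox, a factor of chronically stimulated T cells, rose by 2.61 and Nfil3, a factor of NK cell development, by 2.14. Hopx fell by 2.64, from 238 to 38.1 CPM. All 5 epithelial and all 5 endothelial markers fell in the same comparison, and their part in the fall of Hopx was not tested. Zeb2, at 776 and 746 CPM, and Ikzf2, at 29.4 and 47.8 CPM, were not called (edgeR adjusted p = 0.857 and 0.0930).

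**Figure D5:**
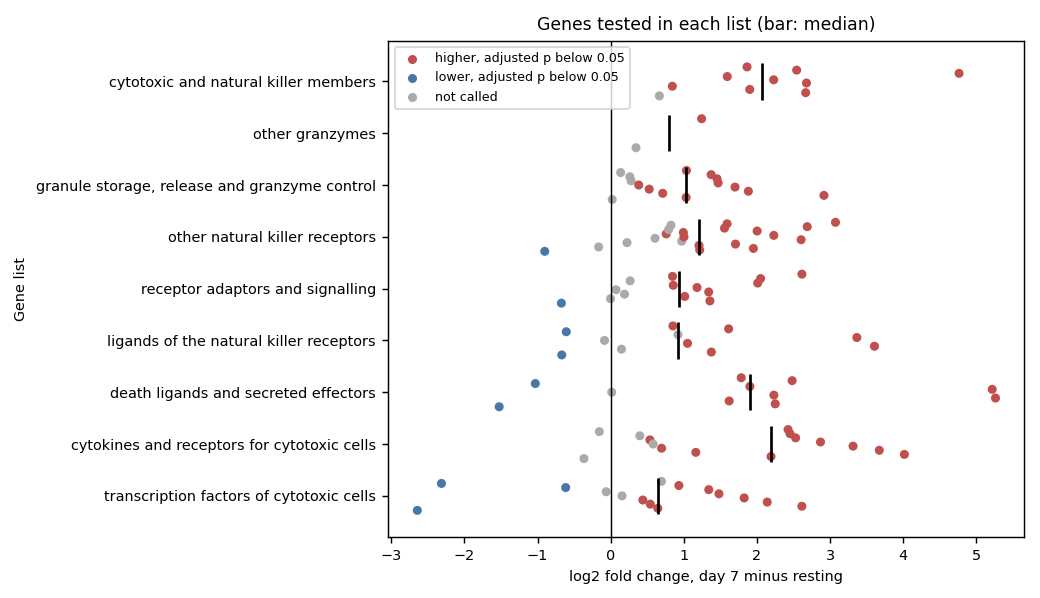
Log2 fold change, day 7 minus resting (x axis), of every tested gene in the list of 10 and in 8 lists of related genes (rows). Red points were called higher, blue points lower and grey points neither (edgeR), and black bars are medians. The medians of the related lists run from 0.64 for the transcription factors to 2.19 for the cytokines and receptors, and the blue points of the transcription factor list include Hopx at -2.64.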

How the data were processed

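The 10 genes and the lists of related genes and cell markers (224 entries, 1 of them matching no identifier) were chosen with earlier results of these data known. Trizol extraction and the NEBNext Ultra II kit were used, per the labels' protocols. The submitters' processing notes name STAR 2.5.2b, Subread 1.5.2 with featureCounts, Trimmomatic 0.36, bcl2fastq 2.17 and the build mm10. The authors deposited unnormalized counts per gene, and no source used here gives the strand setting, the annotation release or how reads with several matches were counted. Reads of Balb/c donor cells may match a C57BL/6 reference less well. A further 10 columns headed by bare numbers match no label and were not used.

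Genes with few counts were removed by edgeR's filterByExpr (16500 kept, 32815 removed) and tested with edgeR 4.0.16 in R 4.3.3: quasi-likelihood F test, robust dispersion, TMM scaling, Benjamini-Hochberg adjustment over all genes, threshold 0.05. On simulated data for this comparison of 16500 genes it called 52% of 2-fold and 94% of 4-fold rises. CPM values use TMM-scaled totals, with a pseudocount of 0.5 CPM on log scales. Ratios and pairs were tested by exact two-sided permutation (scipy 1.17.1, smallest p 0.00794). Gene spans and exon lengths come from GENCODE M21, promoter windows from RefSeq. All 10 genes are named. Related genes are named by rule: in each list up to 3 called genes with the largest change and up to 2 uncalled ones with the highest level, at 10 CPM or more. No label says that the libraries of a group come from separate experiments, so p-values measure the spread between these pools. No 2 libraries of a group agreed within sampling noise. Alternatives were other scalings, tests, filters and references, thinning, and leaving out each library.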

Additional observations from a re-analysis of the deposited data

Results flagged for a closer look

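The log2 ratio of Tbx21 to the summed CD3 chains was -3.34 in day 7 library 5, apart from the other 4 day 7 libraries, which lay between -2.80 and -2.63. The gap to the nearest library made up 0.761 of the range of the group, above the critical value of 0.710 for 5 samples. This library also had the highest sum of CD3 chains, at 291 CPM, while its Tbx21 level of 28.4 CPM was close to the 28.02 CPM of library 3. In 40 groups of values examined this way, chance gives about 1 such case in 20.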

How the results depend on the processing

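Of the 171 values that 19 alternatives gave for the 9 genes called higher, 170 stayed higher and past the threshold. The exception was Eomes with library totals alone, where 8 genes were called, and without a filter on low counts Ncr1 passed as well, giving 10. Leaving out 1 library at a time gave 9 in every case, and so did a fit with the replicate number as a block. Same-numbered libraries did not pair: their deviations correlated at -0.225 to 0.142, and in 0 of 5 cases did a resting library correlate best with its own number. Over all genes the block left 3317 higher and 3636 lower, library totals alone 2495 higher and 4883 lower, and no filter 4862 higher and 6715 lower, against 3843 and 3859. With library totals alone no other granzyme was called, and 10 of the granule genes, 11 of the NK receptors, 10 of the cytokine genes and 6 of the transcription factors rose.

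The calls on ratios to CD3 depended on the setting. Of the 10 ratios 4 passed, against 2 with Cd3e alone, 2 with a pseudocount of 1 CPM, 2 after thinning to the shallowest library, 0 to 4 with 1 library left out (a design whose smallest p is 0.0159), 8 against the CD8 chains, 8 against Klrb1c, Klre1 and Klra8 and 10 against the 8 other genes of the NK list. Against the CD8 chains the sign turned for Gzmb (-0.72), Gzmk (-0.19), Nkg7 (-0.89) and Klrk1 (-0.74), and against the NK genes for Gzma (0.71), Prf1 (1.07), Klrd1 (1.33) and Tbx21 (1.08). Against the 8 NK list genes, whose sum fell at day 7, it turned for Gzma (2.88), Prf1 (3.25), Klrd1 (3.51), Ncr1 (1.84), Eomes (2.174) and Tbx21 (3.25). The small difference in the Nkg7 ratio also turned after thinning (-0.033) and ran from -0.025 to 0.11 with 1 library left out, below 0 without resting library 1, resting library 5 or day 7 library 3. That of Klrk1 ran from -0.044 to 0.52, below 0 without day 7 library 2. The cause was not tested. Genes with resting levels near 3 counts, such as Gzmk, have ratios limited by depth.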

Other observations

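Gzmb, Gzmc and Mcpt8, 3 genes of a cluster of serine protease genes on chromosome 14, ranked the 5 day 7 libraries in the same order, a pattern noticed after the values were seen. Mcpt8, a protease gene of basophils, had 82.0, 2.41, 46.1, 12.5 and 38.3 CPM in day 7 libraries 1 to 5, and Gzmc had 10.2, 1.37, 6.18, 3.81 and 5.75 CPM. Library 1 was highest and library 2 lowest for both, as for Gzmb. Cma1, a mast cell protease gene of the same cluster, did not share the order, with 5.05, 7.24, 15.7, 3.62 and 9.94 CPM. At rest Mcpt8 had 10.3, 1.09, 1.34, 7.66 and 2.21 CPM, an order that Gzmb did not share. Mcpt8 was higher at day 7 by 3.04 ± 0.82 on the log2 scale (edgeR, adjusted p = 0.00860) with overlapping groups. Among 7 tested markers of mast cells and basophils 3 rose, 1 fell and 3 were not called, beside 23.3% higher and 23.4% lower among all genes. The 1 that fell was Kit, and the list without Kit summed to 13.6 to 37.6 CPM at rest and 17.5 to 143 CPM at day 7. The part of basophils in the Gzmb level was not tested.

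The NKG2D ligand gene Raet1d, also named after its values were seen, had 0.421, 0.297, 0.309, 0.538 and 0.591 CPM at rest and 12.2, 4.11, 2.62, 1.45 and 2.58 CPM at day 7. All day 7 libraries were above the resting ones, with library 1 highest, and the log2 fold change was 3.37, or 2.62 without that library. Raet1d reached the filter on low counts through its day 7 libraries, so its call was in part set by that filter. H60b, another NKG2D ligand gene, was at 9.90 and 9.39 CPM (-0.08, edgeR adjusted p = 0.781).

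Other genes with NK cell expression moved the other way. Itga1, the CD49a chain of tissue-resident lymphocytes and also of stromal cells, fell by 3.26 on the log2 scale, from 135 ± 15.1 to 14.1 ± 1.82 CPM (edgeR, adjusted p = 1.44e-09). Itga2 fell by 1.28, Tnfsf10 (TRAIL) by 1.52 and Cd226 (DNAM-1) by 0.90. The call of Cd226 was lost without any 1 of 8 libraries. All 5 endothelial and all 5 epithelial markers fell in the same comparison, from summed levels of 1241 to 1686 CPM and 2856 to 4080 CPM at rest to 63.8 to 124 CPM and 23.6 to 409 CPM at day 7, and their part in these falls was not tested.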
